A study of Homo sapiens with 3 samples.

Results

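The report describes 8 genes that encode secreted growth factors, FGF2, VEGFC, HGF, HBEGF, EREG, AREG, NRG1 and PDGFA, in human HS-5 bone marrow stromal cells, with MM.1S multiple myeloma cells as the contrast. The 8 were taken by symbol out of 43913 genes with at least 1 transcript in the series, and all 8 were found. RNA of single cells was read by Drop-seq, in which a cell and a barcoded bead share a droplet and each captured RNA molecule is tagged with a unique molecular identifier (UMI). There were 3 libraries, 1 per condition, from untreated cells: MM.1S grown alone, HS-5 grown alone, and both lines after 4 h in the same culture. Each line is a single established line, HS-5 being immortalised stroma and MM.1S a myeloma line that grows without stroma, so neither stands for the spread between people.

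Growth factors of this kind are made by marrow stroma and act on neighbouring cells through receptor tyrosine kinases, which pass the signal to the RAS and MAPK pathway among others. EREG, AREG and HBEGF are membrane-bound precursors of ligands of the receptor EGFR and are cut free by ADAM proteases, while NRG1 binds ERBB3 and ERBB4. FGF2 binds FGF receptors with heparan sulfate, VEGFC binds the receptors FLT4 and KDR on lymphatic and blood vessel endothelium, PDGFA binds PDGFRA on mesenchymal cells, and HGF, a classical product of stroma and a known myeloma growth factor, binds MET.

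The libraries held 3865 barcodes and 6143448 UMIs for HS-5 alone, 3994 barcodes and 10433182 UMIs for MM.1S alone and 3963 barcodes and 3981392 UMIs for the coculture. Coculture cells were assigned to a line by 137 HS-5 genes and 62 MM.1S genes that differed at least 50-fold between the monocultures, and none of the 8 growth factor genes was among them. This gave 2096 HS-5 cells and 1647 MM.1S cells, and left out 104 mixed cells and 9 cells with too few line-specific UMIs. Applied to the monocultures, the same rule put 3731 of 3732 HS-5 cells and 3947 of 3947 MM.1S cells on their own side. The genes had been chosen from these same monocultures, so this is no independent check. It does not measure how well coculture cells were assigned. Of the 10 stromal markers, COL1A1, COL1A2, COL6A1, IL6 and THY1 were high in HS-5 alone of the 2 lines. VIM was higher in HS-5, as was LGALS1, which was also abundant in MM.1S. Against their role as stromal markers, FN1 was 3.22-fold and CAV1 1.28-fold higher in MM.1S, and TAGLN was at or near 0 in both. Of the 11 MM.1S markers found, SDC1 was 3.53-fold higher in HS-5 and CD79A was at or near 0 in both lines. The others were higher in MM.1S. Libraries shared between 39 and 76 barcodes by pair, and leaving those barcodes out changed no count of growth factor genes past a threshold given here.

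Levels are given as CPM, the UMIs of a gene per 1000000 UMIs of the same cells. A UMI count registers a molecule once whatever its length, so CPM were not divided by gene length. All intervals are 95% intervals for counting error only, since with 1 library per condition there was no replicate and no test of a difference between conditions. A ratio was called past a fold where the 2 levels averaged 10 CPM or more, and 1 CPM was added to both levels for the call.

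In HS-5 cells grown alone the 8 genes lay far apart. FGF2 stood at 1525 CPM and ranked 54 of 35519 detected genes. EREG followed at 489 CPM, VEGFC at 245, NRG1 at 121, HBEGF at 48.0, PDGFA at 27.0, AREG at 11.6 and HGF at 3.26, which rested on 20 UMIs. No 2 neighbours in this order had overlapping intervals. MM.1S cells had a different order, with HGF first at 35.1 CPM, NRG1 at 3.83, PDGFA at 3.35, FGF2 at 1.73 and the other 4 below 0.5. HGF is therefore listed here as a growth factor of stroma against its own values, since its level was 10.8-fold lower (interval 6.87 to 17.8) in HS-5 than in MM.1S.

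Between the monocultures, 5 of the 7 members that reached the minimum level, FGF2, VEGFC, HBEGF, EREG and NRG1, were at least 10-fold higher in HS-5, against 7.98% of the 8734 genes tested. None was at least 10-fold lower with the added 1 CPM, against 3.05% of genes, and HGF passed that limit when 0.1 CPM was added instead. With 10 CPM added, the count of higher members was 3. The 5 higher members reached the minimum level only through HS-5, since none was above 3.83 CPM in MM.1S. The list was also drawn up as growth factors of stroma, with earlier results of these data known. The count beside 7.98% is therefore a description and no test. FGF2 was 884-fold higher (559 to 1492), EREG 1019-fold (436 to 3142) and VEGFC 1278-fold (353 to 10564), where MM.1S held 18, 5 and 2 UMIs. NRG1 was 31.6-fold higher (23.0 to 44.6) and PDGFA 8.06-fold (lower bound 5.57). AREG, below the minimum level, was 24.1-fold higher (9.86 to 76.6) on 71 UMIs in HS-5 and 5 in MM.1S.

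After 4 h beside myeloma cells the HS-5 cells held less RNA of most of these genes. EREG, NRG1 and HBEGF were past 2-fold lower, FGF2 and VEGFC were lower by about as much as each other and short of 2-fold, and PDGFA, AREG and HGF had intervals that included no difference. The interval of EREG lay wholly past 2-fold, whereas those of NRG1 and HBEGF reached to the other side of it. These 3 were out of 7 members at or above the minimum level, whereas 1.82% of the 8806 genes tested were past 2-fold lower. No member was past 2-fold higher, which 1.18% of genes were. The median log2 ratio of the 7 was -0.60, and that of all genes tested was -0.04. The HS-5 cells had medians of 971.5 UMIs per cell alone and 957.0 in coculture and means of 1646 and 1177, and mitochondrial genes took 2.79% and 2.23% of UMIs.

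**Figure D1:**
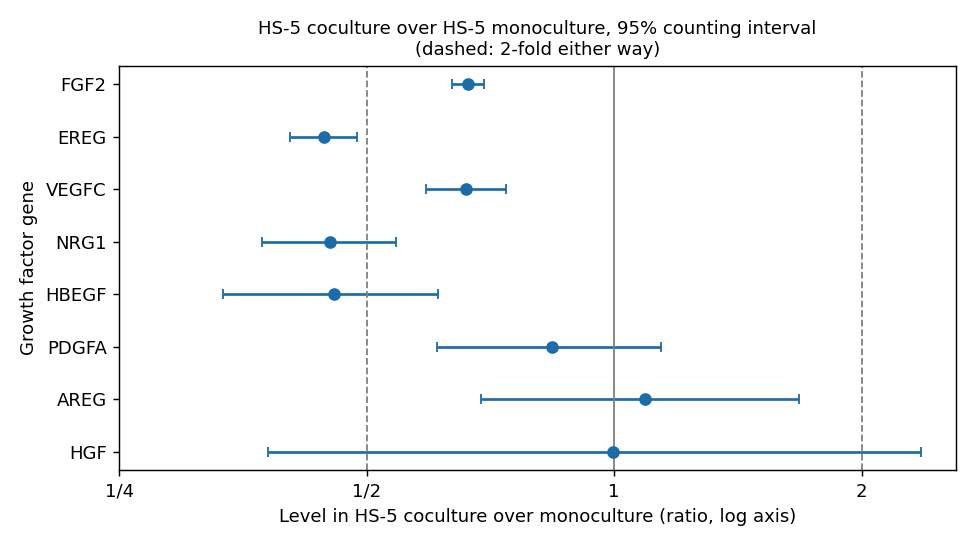
Ratio of each gene's level in HS-5 coculture cells to that in HS-5 monoculture cells (log axis), with 95% counting intervals and dashed lines at 2-fold either way. EREG, NRG1 and HBEGF lie at 0.443, 0.451 and 0.456, FGF2 and VEGFC at 0.664 and 0.660, and the intervals of PDGFA, AREG and HGF cross 1.

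Among the ligands of EGFR, EREG (epiregulin) was the most abundant. It stood at 489 CPM on 3001 UMIs in HS-5 cells alone and at 216 CPM on 534 UMIs in coculture. The ratio was 0.443 (0.403 to 0.486). HBEGF, which also serves as the diphtheria toxin receptor, had 48.0 CPM on 295 UMIs alone and 21.9 CPM on 54 UMIs in coculture, a ratio of 0.456 (0.334 to 0.611). AREG (amphiregulin) behaved otherwise, with 11.6 CPM on 71 UMIs alone and 12.6 CPM on 31 UMIs in coculture, and its ratio of 1.09 had an interval of 0.689 to 1.68 that included no difference and stayed above the ratios of EREG and HBEGF and their intervals. EREG thus exceeded AREG 42.3-fold in monoculture and 17.2-fold in coculture.

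EREG and AREG are neighbours on chromosome 4, in the same orientation. In the GENCODE 29 annotation of GRCh38, EREG covers chr4:74365143-74388751 and AREG chr4:74445134-74455009, both on the plus strand, and HBEGF covers chr5:140332843-140346631 on the minus strand. The 250 bases before each RefSeq start are shown because these 3 genes encode ligands of the same receptor but differed in level. The coculture ratio of AREG also lay apart from those of EREG and HBEGF, which were close to each other. An entry for such a stretch was found for 7 of the 8 members. The sequences were taken from RefSeq on GRCh38.p14, at chr4:74364895-74365144 (plus strand) for EREG, chr4:74444886-74445135 (plus strand) for AREG and chr5:140346604-140346853 (minus strand) for HBEGF, each read 5′ to 3′ along the gene. The RefSeq starts, from which distances are counted, are at 74365145 for EREG, 74445136 for AREG and 140346603 for HBEGF, so the stretches reach a few bases into the GENCODE span of EREG and AREG and further into that of HBEGF. Capitals mark matches on either strand to 3 motifs. The TATA box was searched as TATAAA, the cyclic AMP response element (CRE) as TGACGTCA and the GC box as GGGCGG.
EREG: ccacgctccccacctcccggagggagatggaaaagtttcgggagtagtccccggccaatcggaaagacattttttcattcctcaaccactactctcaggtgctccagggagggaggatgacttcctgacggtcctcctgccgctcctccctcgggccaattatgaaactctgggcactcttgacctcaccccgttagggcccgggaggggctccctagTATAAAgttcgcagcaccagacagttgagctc
AREG: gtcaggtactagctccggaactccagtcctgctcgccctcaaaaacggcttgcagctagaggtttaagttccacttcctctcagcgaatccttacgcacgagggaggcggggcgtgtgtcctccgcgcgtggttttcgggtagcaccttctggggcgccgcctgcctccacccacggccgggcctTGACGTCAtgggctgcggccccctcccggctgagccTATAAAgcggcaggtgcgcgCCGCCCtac
HBEGF: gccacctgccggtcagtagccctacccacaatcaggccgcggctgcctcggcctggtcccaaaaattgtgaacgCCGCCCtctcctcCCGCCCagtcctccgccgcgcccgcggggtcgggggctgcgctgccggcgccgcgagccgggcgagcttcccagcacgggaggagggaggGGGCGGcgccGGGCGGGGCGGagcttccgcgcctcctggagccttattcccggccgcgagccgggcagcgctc
EREG held a TATA box starting 32 bases before the RefSeq start, and no GC box. AREG held a TATA box starting 29 bases before it, the CRE starting 65 bases before it and 1 GC box. HBEGF held 5 GC boxes, of which the last 2 overlap, and neither of the other motifs. Over 35116 promoter stretches of the same length, 10.7% held the TATA box, 1.65% the CRE and 42.6% the GC box. The motif of AP-1 (TGANTCA), held by 6.57% of all stretches, was in none of the 3. Nor was that of NF-kB, held by 1.73%, or the E-box (CACGTG), held by 6.34%. These are matches of letters, and whether any factor binds there was not measured.

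NRG1 (neuregulin 1), a ligand of the EGF family that acts through ERBB3 and ERBB4, fell past 2-fold along with EREG and HBEGF. It had 121 CPM on 745 UMIs in HS-5 cells alone and 54.7 CPM on 135 UMIs in coculture, a ratio of 0.451 (0.373 to 0.543). It is a long gene, covering chr8:31639386-32767959 on the plus strand, with 22 transcripts in GENCODE 29, so the counts do not tell which isoform was made. Of all 11 genes of the EGF family, only EREG, NRG1, HBEGF and AREG reached the minimum level. The other 7 (TGFA, BTC, EPGN, EGF, NRG2, NRG3 and NRG4) were between 0 and 2.60 CPM in HS-5 cells of either library.

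FGF2 (basic fibroblast growth factor) was the most abundant member in HS-5 cells of both libraries. It had 1525 CPM on 9364 UMIs alone and 1012 CPM on 2498 UMIs in coculture, a ratio of 0.664 (0.635 to 0.694), and its rank among detected genes went from 54 to 116. FGF2 covers chr4:122826708-122898236 on the plus strand and overlaps NUDT6 on the opposite strand. Whether the counting used strand is not given in the sources used here, and reads of overlapping genes cannot be told apart without it. NUDT6 was listed at 6.68 CPM alone and 12.2 CPM in coculture, far below FGF2. Its family member FGF5, also a secreted FGF, showed a larger difference, from 224 to 83.9 CPM (ratio 0.375, 0.322 to 0.434).

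VEGFC, the lymphatic endothelial growth factor (chr4:176683538-176792727, minus strand), had 245 CPM on 1505 UMIs alone and 162 CPM on 399 UMIs in coculture. The ratio was 0.660 (0.590 to 0.738), an interval that overlaps that of FGF2. VEGFA, the blood vessel growth factor of the same family, went the other way, at 162 and 216 CPM (1.33, 1.20 to 1.48). The lymphatic and the blood vessel factor therefore stood 1.51-fold apart in monoculture, with VEGFC higher, and VEGFA was 1.34-fold higher than VEGFC in coculture.

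PDGFA, which forms homodimers that stimulate mesenchymal cells (chr7:497258-520296, minus strand), had 27.0 CPM on 166 UMIs alone and 22.7 CPM on 56 UMIs in coculture. Its ratio of 0.840 had an interval of 0.609 to 1.14, so a fall past 2-fold was outside it. HGF, hepatocyte growth factor (chr7:81699008-81770438, minus strand), was at 3.26 CPM on 20 UMIs alone and 3.24 CPM on 8 UMIs in coculture, and the interval of its ratio, 0.379 to 2.36, allows a change past 2-fold either way.

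The ratio of HS-5 coculture to monoculture moved with transcript length, which was not tested as a source of these differences. Among the genes tested, 98.8% had a longest transcript in GENCODE 29, and the median log2 ratio was 0.17 in the quartile of genes with the shortest transcripts, then -0.01 and -0.09, and -0.16 in the quartile with the longest. Set against the median of its own quartile, EREG lay at -1.08, HBEGF at -1.09 and NRG1 at -0.97 on the log2 scale, which left EREG and HBEGF past 2-fold and NRG1 just short of it. FGF2, with a longest transcript of 6775 bases, was -0.43 from that of its quartile, and VEGFC, with 2064 bases, -0.76. Within its quartile, 0.690% of genes had a lower ratio than EREG, 1.01% than HBEGF, 1.15% than NRG1, 6.44% than VEGFC and 12.7% than FGF2.

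EREG, FGF2 and NRG1 were lower in coculture in each of the 3 depth classes examined. In HS-5 cells under 700 UMIs, EREG was at 0.419 (0.322 to 0.541) of its monoculture level, in cells from 700 to 1400 UMIs at 0.484 (0.408 to 0.573) and in deeper cells at 0.439 (0.386 to 0.497). FGF2 lay at 0.700, 0.644 and 0.657 in the same classes. NRG1 lay at 0.573, 0.500 and 0.418, and the upper bound of each was below 1.

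The share of cells with a UMI was compared after each cell was thinned to 500 UMIs, which left out 217 of 3732 HS-5 cells alone and 297 of 2096 in coculture. FGF2 was found in 50.4% of 3515 HS-5 cells alone (48.7 to 52.1) and in 37.2% of 1799 in coculture (35.0 to 39.5). EREG was found in 17.7% (16.4 to 19.0) and 8.78% (7.51 to 10.2), NRG1 in 5.78% (5.03 to 6.60) and 2.72% (2.02 to 3.59), and HBEGF in 2.30% (1.83 to 2.86) and 1.06% (0.637 to 1.64). For these 4 genes the intervals of the 2 libraries did not overlap. VEGFC was in 9.79% (8.82 to 10.8) and 8.17% (6.95 to 9.53), intervals that overlap, and the mean over all possible drawings of 500 UMIs was 10.5% and 7.46%. PDGFA was in 1.82% and 1.39%, AREG in 0.370% and 0.667%, and HGF in 0.0853% and 0.278%, and no order is read from these last values.

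MM.1S cells give the background of these shares. At 500 UMIs FGF2 was in 0.101% of 3947 MM.1S cells alone and 0.833% of 1201 in coculture. EREG was in 0 of 3947 MM.1S cells alone, which, taking 3 cells as the limit a count of 0 allows, puts the share of cells with a UMI at this depth at up to 0.0760%, and in 0.0833% in coculture. VEGFC and HBEGF were also in 0 of the 3947 cells, NRG1 was in 0.152% and PDGFA in 0.127%. HGF was in 1.70% (1.32 to 2.15) of MM.1S cells alone and 2.08% (1.35 to 3.06) in coculture, above its shares in HS-5. Without thinning, FGF2 was in 73.7% of HS-5 cells alone and 56.7% in coculture, EREG in 33.3% and 16.6%, VEGFC in 26.1% and 15.7%, NRG1 in 14.5% and 6.06%, and HBEGF in 6.78% and 2.48%. Median depths before thinning were 2201 UMIs in MM.1S alone and 669.0 in coculture.

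Transcripts of EREG were concentrated in fewer cells than those of FGF2. At 500 UMIs, 621 HS-5 cells alone held EREG, of which 506 held 1 UMI, 77 held 2 and 38 held 3 or more. The Fano factor (variance over mean across cells) was 1.51 for EREG, 1.21 for FGF2, 1.13 for NRG1, 1.07 for HBEGF and 1.04 for VEGFC, beside a median of 1.03 over 2013 genes of at least 100 CPM. In coculture the values were 1.28 for EREG and 1.22 for FGF2, and 1.01 for NRG1. The cell with the most EREG held 66 of its UMIs, 2.20% of all EREG counted in that library, among 12357 UMIs in total, a depth at which a pair of HS-5 cells in a droplet cannot be told from 1 large cell.

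Few cells held several of the 5 abundant members at this depth. At 500 UMIs, 34.3% of HS-5 cells alone held none of FGF2, EREG, VEGFC, NRG1 and HBEGF, 48.1% held 1 of them, 15.3% held 2 and 2.11% held 3. In coculture 51.5% held none, 39.7% held 1 and 8.23% held 2. FGF2 and EREG were together in 328 monoculture cells where the product of their shares gives 313, and in 59 coculture cells where it gives 58.8. EREG and NRG1 were together in 45 monoculture cells against a product of 35.9, and in 6 coculture cells against 4.30.

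Cells were next ranked within each library by the share of their UMIs in genes of inflammation (19 cytokine and chemokine genes with related enzymes), of matrix (20 collagen and matrix genes) and of mitosis (20 genes), lists that hold none of the members, and the highest tercile was compared with the lowest, 1171 cells each alone and 599 each in coculture. The terciles cut a continuous range, with 319 monoculture cells within 10% of the upper inflammatory limit. The growth factors did not behave alike. EREG was 2.35-fold higher (2.12 to 2.61) in the highest inflammatory tercile of monoculture cells, at 695 against 295 CPM, and 3.11-fold higher (2.41 to 4.06) in coculture, at 331 against 106 CPM. NRG1 was 1.91-fold (1.57 to 2.34) and 1.95-fold (1.20 to 3.24) higher there, and FGF2 1.40-fold (1.32 to 1.47) and 1.47-fold (1.33 to 1.63). HBEGF was 2.09-fold higher (1.49 to 2.96) alone, and in coculture its ratio of 1.78 had an interval of 0.901 to 3.67. VEGFC showed 1.14 (0.997 to 1.31) and 1.13 (0.883 to 1.46). Median depths of the highest and lowest terciles were 1079 and 938.0 UMIs alone and 1071 and 1046 in coculture.

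VEGFC was higher in cells rich in matrix RNA, at 1.29-fold (1.13 to 1.48) alone and 1.65-fold (1.26 to 2.18) in coculture between the highest and lowest matrix terciles. FGF2 was 1.25-fold (1.19 to 1.32) and 1.22-fold (1.10 to 1.35) higher there. NRG1 was 1.57-fold higher (1.30 to 1.89) alone, with 1.09 (0.699 to 1.71) in coculture. Alone, HBEGF, PDGFA and EREG were above 1 as well, at 1.32 (0.976 to 1.79), 1.43 (0.923 to 2.22) and 1.13 (1.03 to 1.23). In coculture these 3 stood at 0.872, 0.936 and 0.826, with intervals that included 1. AREG was lower in cells rich in matrix RNA in both libraries, on few molecules, with 6 UMIs in the highest and 31 in the lowest tercile alone and 1 against 22 in coculture, where a single cell held 7 of the 31 AREG UMIs of that library. Cells rich in mitosis RNA held less FGF2 (0.832, 0.790 to 0.876 alone, and 0.744, 0.675 to 0.821 in coculture), VEGFC (0.687 and 0.751) and NRG1 (0.749 and 0.421, the last on 30 against 56 UMIs), while EREG stood at 0.998 (0.906 to 1.10) and 0.933 (0.752 to 1.16). In coculture 23.1% of the ranked cells held no mitosis UMI and were ordered by their place in the file.

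For EREG, NRG1 and FGF2 the lower level in coculture was found in both extreme inflammatory terciles. EREG was at 0.360 (0.280 to 0.458) of its monoculture level in the lowest tercile and at 0.476 (0.416 to 0.543) in the highest. NRG1 was at 0.408 (0.257 to 0.622) and 0.417 (0.308 to 0.555), and FGF2 at 0.650 (0.593 to 0.712) and 0.686 (0.639 to 0.737). HBEGF was at 0.640 in the lowest tercile, with an interval of 0.327 to 1.18 that included no difference. In the highest it was at 0.546 (0.346 to 0.831). Likeness to other genes was taken over HS-5 cells of at least 1000 UMIs, 1802 alone and 995 in coculture. For each member, only the 3 genes with the highest r in monoculture, out of 2013 candidates, were examined. Of these, 4 genes passed the limit of r = 0.10 in both libraries. EREG was most like CXCL3 (Pearson r = 0.20 alone and 0.19 in coculture), CXCL5 (0.19 and 0.11), both neutrophil-attracting chemokines, and ALDH1A3 (0.17 and 0.12), which makes retinoic acid, and FGF2 was most like the cytokine gene IL6 (0.19 and 0.14). Cells of a library share depth and base composition, and these r are descriptions of weak likeness. Between cultures these genes differed. IL6 was at 1209 CPM alone and 1208 CPM in coculture, CXCL3 at 354 and 394 and CXCL5 at 757 and 809. ALDH1A3 was lower in coculture, at 200 and 162 (0.812, 0.724 to 0.910). Genes of the inflammatory list as a whole went both ways, from a ratio of 0.137 for CSF2 to 4.01 for CCL2.

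RNA of the receptors was counted in both lines. In HS-5 cells alone, EGFR stood at 153 CPM, the VEGF and semaphorin co-receptors NRP1 and NRP2 at 153 and 109, FGFR1 at 62.4, MET at 27.0 and ERBB2 at 15.6, whereas ERBB3, ERBB4, FLT4 and KDR were between 1.30 and 3.58 CPM, and PDGFRA and PDGFRB at 6.35 and 7.81. EGFR was at 112 CPM in coculture, a ratio of 0.732 (0.638 to 0.838), and NRP2 was at 161 CPM (1.48, 1.30 to 1.67), both short of 2-fold. In MM.1S cells alone EGFR was at 2.40 CPM, FGFR1 at 1.82, MET at 1.73 and NRP1 at 2.01, with NRP2 at 26.6. Of 17 receptor genes 8 reached the minimum level in HS-5 cells and none was past 2-fold, with a median log2 ratio of 0.01.

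Among the proteases that free EGFR ligands, ADAM10 was at 66.3 CPM alone and 74.2 in coculture (ratio 1.12, 0.935 to 1.34), ADAM9 at 127 and 127, and ADAM17, the main sheddase of EREG, AREG and HBEGF, at 4.72 and 9.73 (2.06, 1.15 to 3.67, on few molecules and below the minimum level). PLAU, the urokinase protease, was at 127 and 163 CPM (1.29, 1.14 to 1.45), and FURIN, a convertase, was at 20.2 and 11.8 (0.582, 0.375 to 0.878). None of the 10 genes of that list at the minimum level was past 2-fold. SPINT2, an inhibitor of HGF-activating proteases, was at 447 CPM in MM.1S alone and 0.326 CPM in HS-5 alone.

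Of genes induced by MAPK signalling, a common readout of growth factor receptors, 16 reached the minimum level in HS-5 cells and 0 were past 2-fold, beside 1.82% lower and 1.18% higher over all genes. Their median log2 ratio was -0.17. SPRY4, a feedback inhibitor just under the minimum level, was at 13.5 and 6.08 CPM (0.450, 0.241 to 0.786). The lowest of the 16 were DUSP5 (121 to 68.1 CPM), SPRY2 (15.6 to 10.1) and DUSP7 (34.7 to 23.5), all feedback inhibitors of the pathway. The highest were ETV1 (35.7 to 53.9 CPM), IER3 (69.2 to 89.2) and ETV4 (13.8 to 17.4). Of 36 other growth factor genes found, 13 reached the minimum level, 10 of them with a ratio below 1. Only FGF5 of the 13 was past 2-fold lower, beside 1.82% of all genes tested. The median log2 ratio of the 13 was -0.47, beside -0.60 for the members and -0.04 for all genes tested. GAS6, a ligand of AXL family receptors, was at 109 CPM alone and 55.5 CPM in coculture (0.510, 0.421 to 0.614), ANGPTL4 at 151 and 88.0 (0.582, 0.500 to 0.676), and the heparin-binding factors MDK and PTN at 48.0 and 76.2 (1.59, 1.31 to 1.91) and at 15.0 and 20.3 (1.35, 0.939 to 1.93).

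MM.1S cells in coculture showed low levels of the HS-5 growth factors. The 137 HS-5 genes of the split stood, summed, at 2.03% of their HS-5 level in the MM.1S cells of the same library. The same genes assigned the cells to a line, so the assignment itself keeps this value low. Over 113 of them with at least 200 UMIs, single genes ranged from 0 to 10.8%, with a median of 1.95%. FGF2 was at 1.78% (1.14 to 2.65) on 24 UMIs, VEGFC at 1.86% (0.504 to 4.79) on 4 UMIs and EREG at 1.39% (0.377 to 3.57) on 4 UMIs, all with intervals that include that value. FGF2 was at 1.73 CPM in MM.1S alone and at 18.0 CPM in MM.1S of the coculture. RNA from HS-5 cells and expression by MM.1S cannot be told apart in this value. NRG1 stood at 9.61% (3.79 to 20.3) on 7 UMIs, an interval above 2.03%, but its value lay inside the range of single split genes. MM.1S alone held 3.83 CPM of NRG1 and MM.1S in coculture 5.26. HBEGF stood at 6.86% (0.810 to 26.0) on 2 UMIs. AREG had 0 UMIs in MM.1S cells of the coculture, where 3 UMIs would make 2.25 CPM.

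PDGFA and HGF also had intervals above the 2.03% of the split genes in MM.1S cells. PDGFA was at 14.3 CPM on 19 UMIs in coculture MM.1S cells, 62.9% (35.3 to 107) of its HS-5 level, where 2.03% of that level gives 0.613 UMIs. Its level in MM.1S alone was 3.35 CPM on 35 UMIs, so the ratio of coculture to monoculture was 4.25 (2.30 to 7.64), in contrast to 0.840 in HS-5. The MM.1S cells of the coculture had a median of 669.0 UMIs against 2201 alone, and the part of depth in this ratio was not tested. HGF was at 35.1 CPM on 366 UMIs in MM.1S alone and 42.1 CPM on 56 UMIs in coculture, a ratio of 1.20 (0.888 to 1.59), and it was the only member more abundant in MM.1S than in HS-5 in both cultures.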

How the data were processed

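HS-5, MM.1S and their coculture were profiled by Drop-seq, 1 library each. The authors deposited whole-number UMI counts per gene and cell barcode for each library, without normalization. The submitters' processing notes name Cell Ranger 3.0.2, UMI-tools 1.0.0, STAR 2.5.3a, Subread, featureCounts 1.6.4 and SAMtools 1.9 with the build GRCh38. The annotation, the strand setting and the choice of barcodes are not given in the sources used here. Groups came from the sample labels. Barcodes under 200 genes were dropped, and no doublet caller was run. Coculture cells were assigned to HS-5 above a share of 0.8 of at least 5 line-specific UMIs and to MM.1S below 0.2, and cells between were left out. This removes doublets of both lines that fall between these limits. More uneven ones and doublets of the same line stay in. Counts were summed per line and culture in Python 3.11.15 with scipy 1.17.1. Intervals were exact Poisson for levels, Clopper-Pearson for shares and conditional binomial for ratios. The ratio script was tested on simulated data. Alternatives covered cell filters, scaling, pseudocounts, the split, free RNA, thinning and the state ranking. All 8 members are named, and of each other list at most the genes with the 3 highest and 3 lowest HS-5 ratios, with receptors and shedding partners. Not all of these are named. SPRY4, CSF2 and CCL2 are named outside this rule. No model across replicates was fitted because there was 1 library per condition. The members and lists were chosen with earlier results of these data known.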

Additional observations from a re-analysis of the deposited data

Results flagged for a closer look

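Among the growth factor, receptor, protease and MAPK genes listed, 6 had ratios of coculture to monoculture in opposite directions in HS-5 and MM.1S. Both intervals were clear of 1, and the 2 cultures averaged at least 10 CPM in each line. In MM.1S alone, DUSP5 was at 5.94 CPM and SPRED1 at 5.37 CPM. No share over all genes is given beside the 6. With 1 library per condition the difference between the lines was not tested. Over the genes tested, the median log2 ratio in HS-5 went from 0.17 in the shortest length quartile to -0.16 in the longest. In MM.1S it went from -0.13 to 0.52. The part of transcript length in the 6 contrasts was not tested. GAS6 had a log2 ratio of -0.96 in HS-5 and 0.53 in MM.1S, a difference of -1.49. DUSP5 had -0.82 and 4.06, a difference of -4.88. SPRED1 had -0.39 and 2.10, a difference of -2.49. HDGF had -0.47 and 1.15, a difference of -1.62. VEGFB had -0.33 and 0.99, a difference of -1.32. ETV1 had 0.58 and -0.96, a difference of 1.54. None of the 8 growth factors averaged at least 10 CPM over the 2 cultures in each line with such a contrast. SPRED1, HDGF and VEGFB are named here for this contrast alone, after their values were seen.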

How the results depend on the processing

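No replicate could be left out and no paired analysis was possible because each condition had 1 library. The count of members past 2-fold in HS-5 coculture, 3 lower and 0 higher, stayed within 1.5 times under every alternative tried. Centring on the median of the length quartile, leaving out shared barcodes and leaving mitochondrial genes out of the totals were chosen after seeing the data. EREG ranged from -1.18 to -1.08 (log2 ratio), NRG1 from -1.21 to -0.97 (past 2-fold except after centring by length), HBEGF from -1.14 to -0.86 (past 2-fold except with a pseudocount of 10 CPM), FGF2 from -0.63 to -0.43 and VEGFC from -0.76 to -0.55. The count of members at least 10-fold higher in HS-5 than in MM.1S was 3 with a pseudocount of 10 CPM against 5 otherwise. The count at least 10-fold lower was 1 (HGF) after centring on the median gene, with equal weight per cell, or with a pseudocount of 0.1 CPM, against 0. The level of the HS-5 split genes in coculture MM.1S cells, 2.03% of that in HS-5, was 1.86% with at least 500 genes per cell, 3.79% with split genes 20-fold different, 1.45% with 100-fold and 1.72% with share limits of 0.1 and 0.9. The causes were not tested. Shares of positive cells moved with thinning depth by construction. Depth limits AREG, HGF and PDGFA, whose intervals in HS-5 include no difference.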
